A study of Mus musculus with 8 samples.

Results

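Dense CpG cores are the stretches of the mouse autosomes in which the reduced representation bisulfite sequencing (RRBS) table listed cytosines most closely. A listed cytosine was a member when at least 21 listed cytosines of both strands, itself included, started within 100 bp on either side. By this rule 684080 of 2298998 listed cytosines on chromosomes 1 to 19 were members (29.8%), and they stood at 359706 CpG sites. The median member had a count of 32, the middle range ran from 26 to 40 and the highest count was 95. The rule used positions and no measured difference.

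The study compared stable clones made from NIH3T3 cells, immortalised fibroblasts of mouse embryos. Control clones 2 and 3 carried the control vector, and 14-3-3ε clones 10 and 12 carried 14-3-3ε, a protein that binds phosphorylated partners, in the p3xFLAG-CMV-10 plasmid. That plasmid drives the FLAG-tagged protein from a CMV promoter. All clones grew in medium with 10% fetal bovine serum; the labels describe selection in 800 µg/mL of G418, picking of single colonies and a check of 14-3-3ε clones by western blot for FLAG. Each of the 4 clones had 1 RRBS and 1 RNA-seq sample, so the 8 samples made 4 groups of 2. RRBS libraries began with 1 µg of DNA cut by MspI, and fragments of 150 to 400 bp were kept. The difference in percent methylation, in percentage points (called points here), came with a q-value in the authors' deposited comparison. No value per clone was given there, so no spread between clones, no test over clones and no depth can be stated; if reads were pooled within a group, the q-values measure read sampling only. A value above 0 was read as higher in 14-3-3ε clones, for methylation and for RNA alike, a direction that neither table states; every direction given rests on that reading. A cytosine with q under 0.05 is called lower or higher by its sign.

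The cells carried fibroblast RNA. All 11 fibroblast markers, among them Col1a1, Vim and Pdgfra, had mean normalized counts from 2189 to 424650 over the libraries in the authors' deposited table. The 4 epithelial markers ranged from 0.25 to 51.1 in the authors' deposited table, with Krt8 highest and the defining Epcam and Cdh1 at 0.502 and 0.732. For 3 blood markers the authors' deposited table gave 6.57 to 110 (Cd68 highest), for 3 endothelial markers 0 to 8.17 (Kdr at 0), and for 3 muscle markers 0 to 58.9 (Des highest, Myog at 0). Neural markers had values from 0 for Sox2 to 781 for Map2 in the authors' deposited table.

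In mammals DNA methylation sits mainly on the cytosine of CpG dinucleotides and, after replication, maintenance methylation copies it to the new strand, so both strands of a CpG are usually in the same state. Methylated CpGs have tended to be lost over evolution through deamination, and most CpGs that remain in the genome are methylated. Dense clusters, the CpG islands, have escaped this loss. They lie at the promoters of housekeeping and developmental genes and are mostly unmethylated in normal cells, while immortalised lines can gain methylation in some of them. MspI cuts at CCGG whatever its methylation, so RRBS reads such islands heavily.

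The promoters of 4 genes with long runs of calls in 1 direction show what such a core looks like. They are RefSeq sequences of build GRCm38.p6, the assembly of mm10, each from 250 bases before to 50 bases after a listed transcription start. All are written 5′ to 3′ on the minus strand, and capitals mark CpGs called in the direction of the run on at least 1 strand. The Bnc1 window (chr7:81992250-81992549) and the Chn1 window (chr2:73775297-73775596) hold runs of lower calls, and the Kcnn1 window (chr8:70856959-70857258) and the Zdhhc12 window (chr2:30093586-30093885) runs of higher calls.
Bnc1: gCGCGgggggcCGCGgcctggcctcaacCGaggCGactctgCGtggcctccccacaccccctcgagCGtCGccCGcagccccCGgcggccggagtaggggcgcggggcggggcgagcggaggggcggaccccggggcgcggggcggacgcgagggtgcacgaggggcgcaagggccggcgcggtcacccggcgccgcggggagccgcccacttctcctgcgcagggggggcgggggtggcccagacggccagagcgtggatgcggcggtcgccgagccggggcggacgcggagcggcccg
Chn1: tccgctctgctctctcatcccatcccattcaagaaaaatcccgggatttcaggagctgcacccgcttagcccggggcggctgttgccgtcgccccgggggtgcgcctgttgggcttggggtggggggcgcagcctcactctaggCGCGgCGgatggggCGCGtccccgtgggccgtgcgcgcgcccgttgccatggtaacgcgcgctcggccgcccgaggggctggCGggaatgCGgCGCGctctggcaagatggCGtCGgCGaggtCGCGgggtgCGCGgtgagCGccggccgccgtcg
Kcnn1: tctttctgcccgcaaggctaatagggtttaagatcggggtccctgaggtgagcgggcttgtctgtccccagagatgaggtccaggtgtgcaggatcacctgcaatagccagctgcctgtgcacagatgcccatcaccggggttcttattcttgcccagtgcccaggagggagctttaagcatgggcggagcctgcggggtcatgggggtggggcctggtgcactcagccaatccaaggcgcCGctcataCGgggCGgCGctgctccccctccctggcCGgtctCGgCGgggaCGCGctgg
Zdhhc12: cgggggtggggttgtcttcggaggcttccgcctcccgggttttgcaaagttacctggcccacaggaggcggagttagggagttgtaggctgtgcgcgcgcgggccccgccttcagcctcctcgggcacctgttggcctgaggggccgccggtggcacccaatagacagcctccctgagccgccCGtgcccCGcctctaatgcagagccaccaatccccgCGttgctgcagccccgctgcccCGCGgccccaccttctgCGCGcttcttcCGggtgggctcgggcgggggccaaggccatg
The Bnc1 window has 50 CpGs and a GC content of 83.3%. Only 12 of these CpGs were members, all in the upstream part, and 11 of the 12 carried a lower call, from position -248 to position -167 relative to the start. Of 43 CpGs in the Chn1 window 19 were members and 17 had a lower call, spread from position -105 to position 36. In the Kcnn1 window 9 of 13 member CpGs had a higher call, all between position -8 and position 45. The Zdhhc12 window differed in holding both directions: 8 of 21 member CpGs had a higher call, and 2 member cytosines were called lower. Mean differences over the members of these windows were -25.6 points at Bnc1, -32.2 at Chn1, 21.96 at Kcnn1 and 7.01 at Zdhhc12. Most member CpGs carried a lower call at Bnc1 and Chn1, and at Kcnn1 the calls inside the window lay around the start. The window ends 50 bases after the start, and it held 12 of the 16 higher calls of the Kcnn1 core. The others lay farther downstream. The capitals of a window can belong to more than 1 run, since uncalled cytosines break a run.

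Across all members, differences were small and calls were sparse. Of 684080 members, 20221 were called (2.96%), where the background over all autosomal cytosines was 4.74%. Lower calls numbered 11626 (1.70%, background 2.82%) and higher calls 8595 (1.26%, background 1.92%), so 57.5% of the calls in dense cores were lower. The mean difference was -0.231 points and the median 0. A difference of exactly 0 was listed for 19.08% of members and one under 1 point, in either direction, for 48.6%. The 90th percentile of size was 8.22 points. Plus and minus strands gave the same picture, with 2.95% and 2.96% called.

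The called members themselves had sizeable differences, with a median size of 16.4 points and a middle range from 10.01 to 23.97. The smallest called difference was 1.17 points and the largest 83.0. A total of 1063 calls, or 5.26%, were under 5 points. At the other end, 4577 calls (22.6% of the calls in dense cores) reached 25 points, where 27.3% of all autosomal calls did. As a share of cytosines these were 0.669% of members, beside a background of 1.30%. Calls of at least 50 points numbered 206, of which 160 were lower and 46 higher; they made up 0.0301% of members, beside a background of 0.0465%. Of the 160 lower ones, 50 lay in 1 core inside Septin5, and without it 110 remained. Another 2320 members differed by 25 points or more and were not called.

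Within the dense cores the differences shrank further as density rose. The called share was 3.94% at counts of 21 to 25, 3.35% at 26 to 30, 2.66% at 31 to 40 and 1.98% at 41 or more. Mean size fell in the same order, from 3.72 to 3.28, 2.74 and 2.16 points, and members at exactly 0 rose from 14.8% to 23.9%. The median called difference went from 17.6 points in the first of these ranges to 13.7 in the last. Less dense cytosines were called more often, at 5.33% for counts of 11 to 20, 6.18% for 5 to 10 and 4.73% for 1 to 4. Depth per cytosine is unknown, so how far read number moved with density was not tested. At the limit itself there was no step: counts of 19, 20, 21 and 22 had 4.07%, 4.59%, 3.93% and 4.44% called. The plot of difference sizes and called shares by density shows both patterns.

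**Figure D1:**
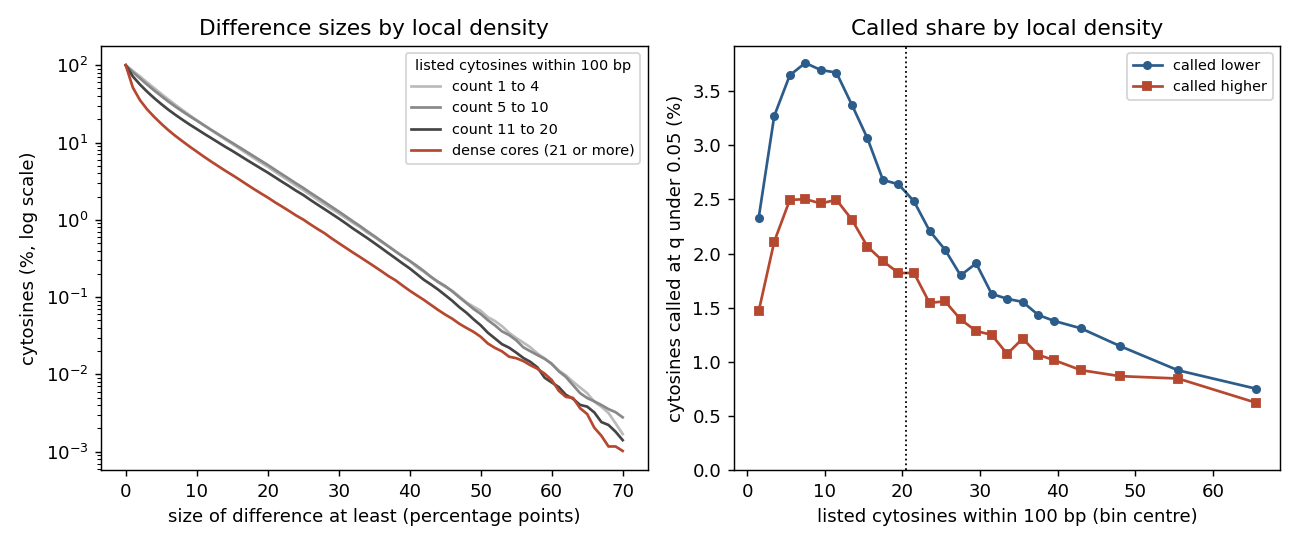
Left, percent of cytosines (log scale) whose difference is at least the size on the horizontal axis in percentage points, for 4 ranges of local density; right, percent of cytosines called lower (circles) or higher (squares) at q under 0.05 against the number of listed cytosines within 100 bp, with the dotted line at the limit for dense cores. The line of dense cores lies under those of the other ranges for most sizes, and called shares are lower at the highest counts than at the limit.

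The chromosomes varied around these values. The called share of members ran from 2.28% on chromosome 14 to 3.69% on chromosome 8. Lower calls made up 50.3% of the calls on chromosome 17 and 67.4% on chromosome 16, the chromosome of Septin5. The mean difference was below 0 on each of the 19 autosomes, from -0.578 points on chromosome 16 to -0.0941 on chromosome 19.

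Both strands were listed at 324374 CpGs of the dense cores, and a change on one strand was mostly seen on the other. When 1 strand was called, the other had the same sign for 90.4% of 19689 called cytosines and was itself called in that direction for 40.9%. CpGs called on both strands in the same direction numbered 4025, and 10 were called in opposite directions. Over all pairs Pearson's r between strands was 0.464 across 324374 CpGs, and 0.459 without the Septin5 core. These CpGs come from the same 4 libraries and neighbours share reads, so r is a description only.

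The second strand showed a smaller difference than the called one. For cytosines called lower the median was -17.0 points and that of their partners -9.97. Cytosines called higher had a median of 15.3 points and partners at 9.12. The called strand was picked by its q-value and its partner was not, so the sizes of the strands are not compared on equal terms. CpGs called on both strands had a median size of 17.4 points. Where 1 strand was called, its median size was 15.6 and that of the uncalled partner 5.29 points in the same direction.

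Agreement between strands rose with the size of the called difference. Calls under 5 points had the same sign on the other strand in 76.9% and a call there in 18.4%. From 5 to 10 points the same-sign share was 90.0%, and calls of 50 points or more reached 95.8% with 65.6% called on both strands. Agreement was lowest where cytosines were sparse. The same-sign share was 66.4% at counts of 1 to 4, 83.8% at 5 to 10, 89.1% at 11 to 20 and 90.4% in dense cores, and r in the same order was 0.170, 0.411, 0.483 and 0.464. Within dense cores r went from 0.485 at counts of 21 to 25 to 0.418 at 41 or more, while the same-sign share stayed between 89.9% and 91.3%.

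**Figure D2:**
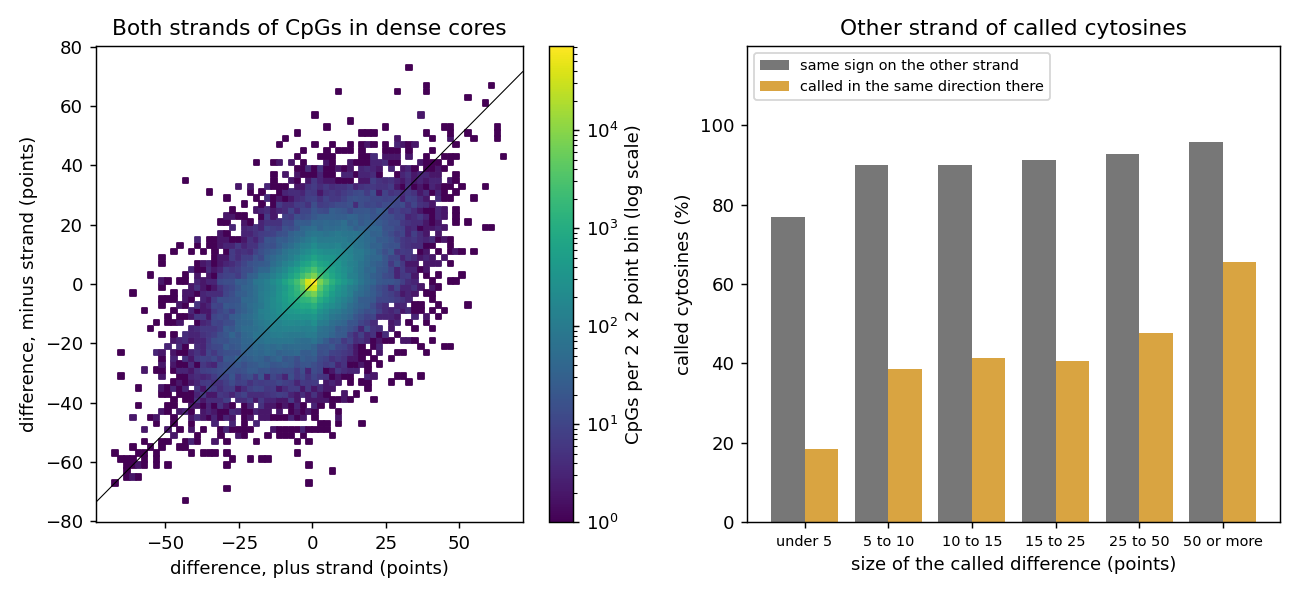
Left, CpGs of dense cores by the difference on the plus strand and on the minus strand in percentage points, coloured by the number of CpGs per bin (log scale), with the line of equal values; right, bars with the percent of called cytosines whose other strand has the same sign (grey) or a call in the same direction (yellow), by size of the called difference. Most CpGs lie near 0 on both axes, and the grey bars stand between 76.9% and 95.8%.

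CpGs inside CCGG, the site that MspI cuts, were the exception to strand agreement. This could be seen where the promoter table gives the sequence: it held 155956 member cytosines, 17404 of them inside CCGG. Inside CCGG the strands were hardly correlated, with r of 0.0291 across 8369 CpGs, against 0.496 across 65015 other CpGs. Of 202 called cytosines inside CCGG, 50.99% had the same sign on the other strand and 3.96% a call there. For 2211 called cytosines at other CpGs the shares were 91.3% and 39.7%. CCGG cytosines also had larger differences, with a mean size of 4.25 points against 2.00, and only 1.43% of them stood at exactly 0 against 25.4%. In spite of the larger sizes they were called less often, at 1.18% against 1.67%.

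The same contrast held at every density looked at. At counts of 11 to 20, r was 0.0521 inside CCGG and 0.571 at other CpGs. CCGG cytosines made up 20.3% of the cytosines in promoter windows at those counts and 11.2% in dense cores. At other CpGs the same-sign share was 93.1% at counts of 11 to 20 and 91.3% in dense cores. Outside CCGG, agreement was thus not lower at counts of 11 to 20 than in dense cores. Counts under 11 were not split in this way. In the 4 density ranges within dense cores r lay between 0.0276 and 0.0347 inside CCGG and between 0.381 and 0.541 at other CpGs. As background, a CCGG site lies at the ends of RRBS fragments, where end repair fills in cut ends with new nucleotides, and the labels list end repair among the library steps. Its part in these values was not tested.

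Calls clustered along the strand. A member on the same strand 2 to 10 bp from a cytosine called lower was itself called lower in 25.9% of cases, and at 11 to 25, 26 to 50 and 51 to 100 bp in 18.8%, 14.1% and 11.6%. Beside a cytosine called higher, 19.8% of same-strand members at 2 to 10 bp were called higher, and the share fell to 6.62% at 51 to 100 bp. Over all members 1.70% were called lower and 1.26% higher. Calls in the opposite direction were also above these shares, over all these distances and both strands. Beside a lower call 1.39% to 2.49% of members were called higher, and beside a higher call 1.92% to 3.35% were called lower. Cytosines of neighbouring CpGs on the other strand followed less closely, with 16.5% beside a lower call at 2 to 10 bp and 12.3% beside a higher one.

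Pearson's r between members on the same strand was 0.370 at 2 to 10 bp, 0.259 at 11 to 25 bp, 0.184 at 26 to 50 bp and 0.128 at 51 to 100 bp. Between strands, with the partner in the same CpG left out, the values were 0.185, 0.134, 0.0938 and 0.0813. Members a few bases apart can be read on the same fragments, and the sharing was not measured here. Without the Septin5 core and the ribosomal RNA stretch described below, r on the same strand went from 0.360 at the shortest distance to 0.112 at the longest.

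**Figure D3:**
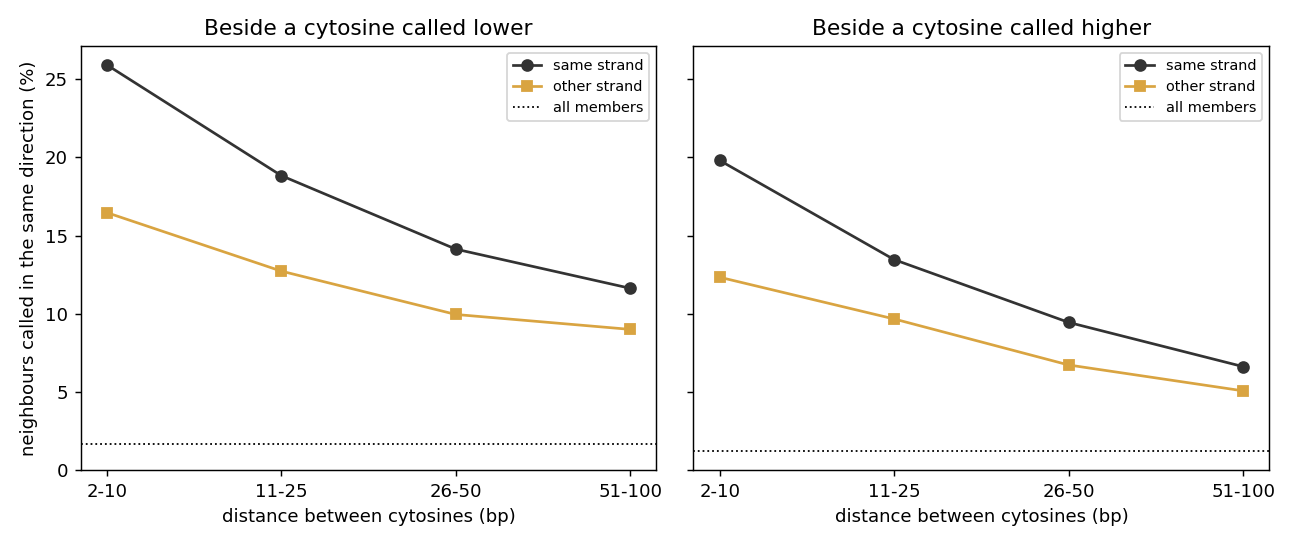
Percent of neighbouring members called in the same direction as a called cytosine, against the distance between them in bp, for cytosines called lower (left) and higher (right), on the same strand (circles) and on the other strand (squares); the dotted line is the share over all members. All points lie above that line and fall with distance, from 25.9% to 11.6% on the same strand beside a lower call.

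Joined at gaps of at most 100 bp, the members formed 17804 cores. A core had a median length of 146 bp, a middle range from 93 to 259 bp and a median of 30 members. The longest spanned 3413 bp and belongs to the ribosomal RNA stretch. No member was called in 11241 cores (63.1%), while 1589 cores held calls in both directions. The 100 cores with the most calls held 11.02% of all calls.

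A core was called when at least 3 members were called in 1 direction, none in the other and calls made up at least 10% of its members. Of 16997 cores with at least 3 members, 478 were called lower (2.81%, background 1.72%) and 279 higher (1.64%, background 0.875%). The background counts dense cores and other stretches of at least 3 cytosines together. A core has more members than another stretch, so it has more chances to reach 3 calls. Called cores held 4799 calls, or 23.7% of those in dense cores. The remaining calls lay scattered or in cores with mixed directions. Core means were mild, with medians of -6.21 points for cores called lower and 5.43 for cores called higher. A mean size of 10 points was reached by 122 and 55 of them, and one of 20 points by 16 and 3.

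Most runs of called neighbours were 1 CpG long. A run here is an unbroken series of listed members with calls of 1 sign, counted in CpGs. Lower calls formed 8438 runs and higher calls 6380, and 78.7% and 82.9% of the calls were in runs of 1 CpG. Runs of at least 3 CpGs numbered 126 lower, in 106 cores, and 67 higher, in 59 cores. They held 7.47% of the lower and 4.84% of the higher calls. Their median span was 18 bp for lower and 17 bp for higher runs, and 121 of 126 and 64 of 67 had calls on both strands. That count follows from the rule, since an unbroken run takes in both strands wherever both are listed.

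Lower runs were more frequent, and the longest runs were lower ones in the cores at Septin5 and Bnc1. Per 1000 calls, dense cores had 10.8 lower and 7.80 higher runs of at least 3 CpGs, where less dense stretches had 2.71 and 2.39. Listed cytosines of less dense stretches lie farther apart, which the median spans of 34 bp lower and 32 bp higher there also show. A run also ends where its stretch ends. Less dense stretches had a median of 4 cytosines, against 30 in dense cores, so many of them cannot hold 3 CpGs. The 2 rates are therefore not compared on equal terms. At least 5 CpGs were reached by 18 lower and 7 higher runs. The longest lower run had 17 CpGs and the longest higher run 9. Outside the cores at Septin5 and Bnc1, the longest lower run had 8 CpGs. Runs of at least 3 CpGs had larger differences than single ones, with median run means of -22.8 against -16.4 points for lower and 19.2 against 15.1 for higher calls.

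**Figure D4:**
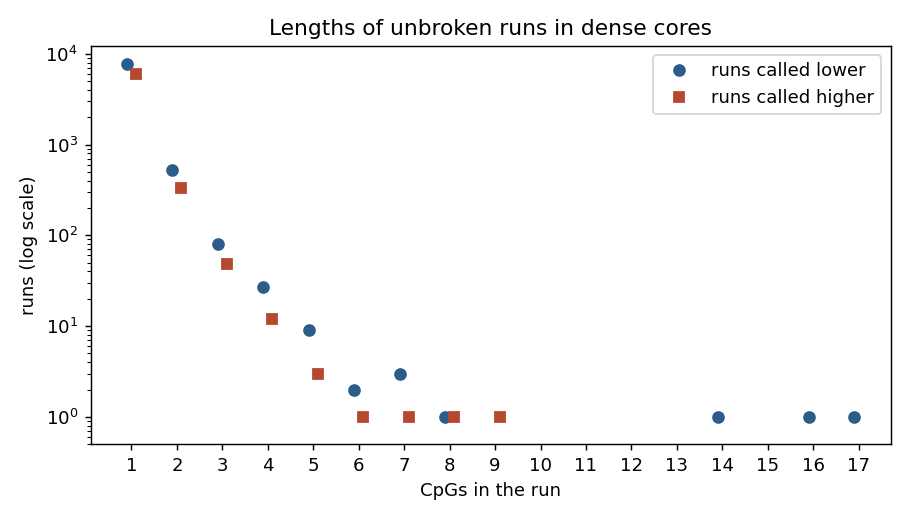
Number of unbroken runs (log scale) against the number of CpGs in the run, for runs called lower (circles) and higher (squares) in dense cores. Counts fall from 7792 lower and 5983 higher runs of 1 CpG. The 3 runs of 14 or more CpGs are all lower and lie in the cores at Septin5 and Bnc1.

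Runs are named from the 10 cores with the longest lower run, taking the longest run of each core and breaking ties by the larger mean, so runs of equal length are named for their large means. The core inside Septin5, the gene of a filament-forming GTPase, came first with a run of 17 CpGs and a mean of -50.2 points, and held 3 runs of at least 3 CpGs. The core at Bnc1, the gene of the zinc finger protein basonuclin 1, was next. Its run lay at chr7:81992507-81992579, 208 bp outside the annotated gene, with 28 cytosines at 14 CpGs, 14 on each strand. These 28 values ran from -56.1 to -20.4 points with a mean of -30.6, or -29.3 on the plus and -31.9 on the minus strand, and 35 of the 41 members of the core were called lower. Strands had the same sign at 19 of 20 CpGs of that core. The lowest values of the run stood at 1 CpG and were seen on both of its strands.

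The other long lower runs differed in depth of the fall and in strand. Inside Chn1, the gene of the Rac GTPase-activating protein chimaerin 1, a run of 7 CpGs at chr2:73775311-73775338 had a mean of -39.3 points. Here the strands shared their sign but differed in level, with run means of -30.2 points on the plus and -47.1 on the minus strand, as the plot of 6 single cores shows. A run of 5 CpGs inside Prdm11, a gene of the PR domain family, had a mean of -43.0 points over 16 bp (chr2:93015121-93015136). Inside Tmem62, a gene of a transmembrane protein, 8 CpGs at chr2:120977356-120977437 had a mean of -25.6 points, while the mean over the 60 members of its core was -13.5. Runs of 6 CpGs inside Ism1, the gene of the secreted protein isthmin 1, and of 5 CpGs each inside Adgrl3, an adhesion receptor gene, and at Cystm1 had means of -27.9, -24.2 and -21.2 points. Milder falls extended over 7 CpGs inside Pdf, the gene of mitochondrial peptide deformylase, with a mean of -8.65 points, and over 7 CpGs inside Hoxa3, a homeobox gene of axial patterning, with -15.2. The Hoxa3 run was listed on the plus strand alone.

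The 10 cores with the longest higher run were chosen in the same way. A run of 8 CpGs lay 18 bp outside Rbpms, a gene for an RNA-binding protein, at chr8:33929940-33929994. All 8 called cytosines were on the minus strand, the only strand listed across this run, and their values stayed between 26.2 and 30.5 points. Inside Setbp1, the gene of the SET-binding protein, 6 CpGs had a mean of 26.9 points, and the 132 members of that core held 30 higher calls and no lower one. A run of 5 CpGs inside Nfia, a nuclear factor I gene, rose by 7.63 points on average.

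The remaining named cores outside the ribosomal RNA stretch had longest runs of 4 CpGs, and of the 12 higher runs of that length these 5 were taken for their large means. At Kcnn1, a gene of a calcium-activated potassium channel, the run (chr8:70857001-70857017) spanned the listed start with a mean of 35.2 points and values from 24.4 to 47.4. Its strand means were 27.01 points on the plus and 41.4 on the minus strand. Fbxl21, an F-box gene of the circadian system, and Epb41l1, a gene of the membrane skeleton, had run means of 34.2 and 34.1 points. The run at Zdhhc12, a palmitoyltransferase gene, had a mean of 28.7 points with 8 called cytosines, 4 on each strand, in a core that also held 2 lower calls. At Sdc3, the gene of the heparan sulfate proteoglycan syndecan 3, 14 of 31 members of the core were called higher and the run mean was 27.6 points.

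**Figure D5:**
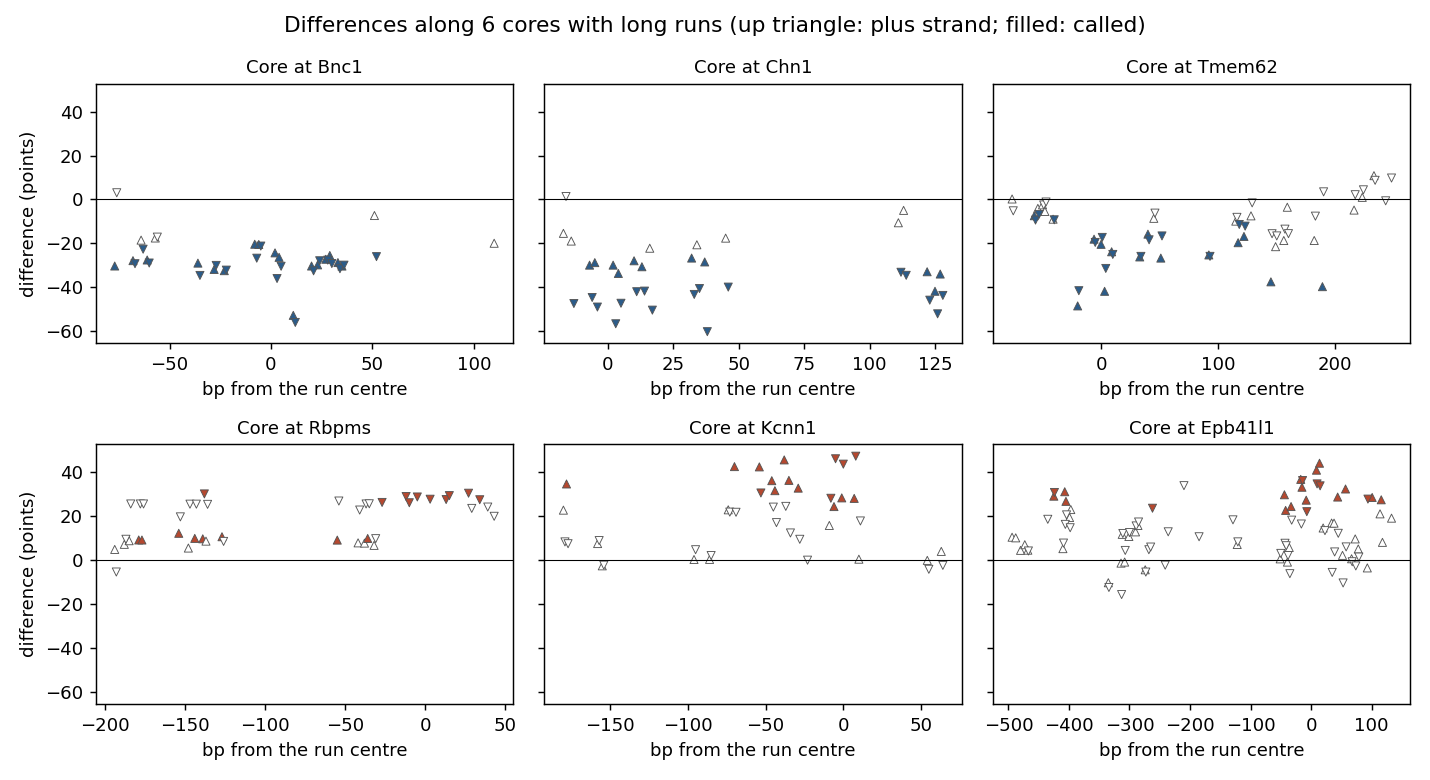
Difference in percentage points of each member against its distance in bp from the centre of the run, for cores at Bnc1, Chn1, Tmem62, Rbpms, Kcnn1 and Epb41l1; triangles pointing up are plus-strand and those pointing down minus-strand cytosines, filled blue for lower calls, filled red for higher calls and open for uncalled members. At Bnc1 and Chn1 nearly all members lie below 0, while at Rbpms, Kcnn1 and Epb41l1 called and uncalled members are mixed along the core.

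A few cores outside these runs had large means over all members. Among cores called lower, 20 members at Rgcc, a regulator of the cell cycle, had a mean of -26.3 points and 22 members inside Pxdc1 one of -28.9. Among cores called higher, 30 members at Gfra2, the gene of a neurturin receptor, had a mean of 26.5 points and 34 members inside Nim1k one of 19.6.

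The stretch with the gene Rn18s-rs5, a copy of 18S ribosomal RNA on chromosome 17 (39843014 to 39848732), held many calls of small size. Its 3 cores had 1076 members, and 162 were called (15.1%), 137 higher and 25 lower. The called differences were small, with a median of 2.78 points, and 136 of all 1063 calls under 5 points lay here. It held 5 of the 67 higher runs of at least 3 CpGs, and the longest, with 9 CpGs, had a mean of 4.47 points. Ribosomal RNA genes are repeated in the genome, and reads of other copies may be placed on this one; copy number and read number there were not tested. Without it the called share of members was 2.94%, and 57.8% of the calls were lower.

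Dense cores lay mainly at promoters, and the called share was lowest just before the starts. Leaving out chromosome 18, whose starts are not used here, 70.6% of members were within 1000 bp of a listed start, and 2.56% of these were called. Inside genes and farther from a start were 23.97% of members, with 3.84% called, and outside genes, over 5000 bp from a start, were 4.65%, with 4.28% called. The called share was 1.69% in the 250 bp before a start, 2.20% in the 250 bp after it, 3.34% at 250 to 500 bp and 3.95% at 500 to 1000 bp after it. It stood at 4.54% from 5000 to 2000 bp before a start. The list of starts is not complete, so some distances are too long.

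Density and place both went with the called share. Near starts it was 3.42% at counts of 21 to 25 and 1.76% at 41 or more, and inside genes away from starts 4.74% and 2.48%. Outside genes over 5000 bp from a start it was 5.40% at counts of 21 to 25 and 2.87% at 31 to 40, but 3.43% at 41 or more. Cores called lower or higher were within 1000 bp of a start in 53.5% and 54.3%, and uncalled cores with at least 3 members in 65.6%. Of calls outside genes and 1000 to 5000 bp from a start, 43.9% were lower, on 205 calls, while within 1000 bp of a start 57.1% of 11989 calls were lower.

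Promoter windows in dense cores are rich in CpGs by the rule itself, which counts listed cytosines. Of 31365 RefSeq promoter windows of 300 bases on the autosomes used, 5473 held at least 10 members. These had a median GC content of 67.7%, 29 CpGs and a ratio of observed to expected CpGs of 0.890, against 57.7%, 14 and 0.588 in 5192 windows with listed cytosines but no member, and 53.0%, 7 and 0.388 over all windows. GGGCGG, the core of the site that Sp1 is known to bind, was present on either strand in 80.8% of them, in 49.9% of windows with listed cytosines but no member and in 35.95% of all windows. For TATAAA, the core of the TATA box, these shares were 3.75%, 8.28% and 13.6%. TGACGTCA, the cyclic AMP response element, occurred in 3.71%, 2.25% and 1.83%. GGGCGG and TGACGTCA hold a CpG and TATAAA does not. Both strands were searched, and none of these motifs contains another.

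Windows that met the rule for called cores had somewhat fewer CpGs. The 87 called lower had a median of 28 CpGs and a ratio of 0.825, and the 50 called higher 25 CpGs and 0.782, against 29 and 0.890 for all windows with at least 10 members. GGGCGG was found in 74.7% and 76.0% of them, a little under the 80.8% of that larger set. A match is a string of letters and no evidence of binding.

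Gene lists gave a view by function. A gene counts here when a core lies inside it or within 1000 bp of its annotated ends. Of 11023 such protein-coding genes, 453 had a core called lower (background 4.11%) and 257 one called higher (background 2.33%). Among 153 developmental regulators, chiefly homeobox, Pax, Tbx, Gata, Sox and Fox genes, 139 had a core, 13 a core called lower and 9 one called higher, and 4.45% of 12161 members were called against 2.84% over all protein-coding genes. These regulators had several cores each, 409 in all, where 16417 cores lay at the 11023 protein-coding genes. None of the 59 housekeeping genes with a core had a called core, and a list of that size would hold few at 4.11% and 2.33%. These genes had 88 cores in all. By contrast with the regulators, 0.862% of their 3827 members were called. Median core means were near 0 in both lists, at -0.10 points for developmental regulators and -0.07 for housekeeping genes, as over all protein-coding genes (-0.05).

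Within the developmental regulators, both directions were seen even within a cluster. At Hoxb13, a posterior homeobox gene, 3 of 4 members of a core inside the gene were called lower with a mean of -22.9 points. Another core 4022 bp outside the same gene had a mean of 20.49 points over 14 members. Hoxb5, in the same cluster, had a core called lower with a mean of -11.3 points. Irx5 and Lhx4, homeobox genes of patterning and of motor neuron and pituitary development, had cores called higher at 14.99 and 14.2 points.

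The smaller lists held 0 to 3 genes with a core called in either direction. Among ligands and receptors of the Wnt, Hedgehog, Fgf, Bmp and Tgf-beta pathways, 3 of 58 genes with a core had one called lower (5.17%, against 4.11% over all protein-coding genes) and 2 one called higher (3.45%, against 2.33%). Fzd1, a Wnt receptor gene, and Gdf6, a Bmp family ligand gene, had means of -10.2 and -6.01 points, and the ligand genes Wnt9b and Wnt10a 10.8 and 3.55. Of 52 tumour suppressors and growth inhibitors with a core, 3 were called lower (5.77%) and 2 higher (3.85%). They include Dkk3 at -6.50, Rassf5 at -5.48 and Rb1 at -2.98 points, and Klf4 at 2.03. Of 35 genes that write, erase or read DNA methylation, 1 had a core called lower (2.86%) and 2 one called higher (5.71%). Tet1, whose product oxidises 5-methylcytosine, had a core called lower at -6.07 points with 13 of 34 members called. Cxxc5 and Mbd1, which encode proteins that bind CpG-containing DNA, had cores called higher at 6.70 and 6.56 points.

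Among 38 imprinted genes with a core, Phlda2 and Kcnq1 were called lower, at -12.2 and -2.61 points (5.26%, against 4.11% over all protein-coding genes), and none higher. With so few genes, shares of this size lie near that background. All 7 genes of the 14-3-3 family had a core, with 0.546% of 549 members called. The exception was Sfn, which encodes 14-3-3 sigma, with 3 of 8 members of a core near its end called higher and a mean of 14.7 points. None of the 23 germline genes and none of the 20 collagen and matrix genes with a core had a called core. Lists of that size would hold few at the shares of 4.11% and 2.33% over all protein-coding genes. Of their members 4.27% and 1.94% were called, against 2.84% over all protein-coding genes.

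RNA was set beside the cores at gene ends. The authors' deposited table gave an adjusted p-value to 191 genes with a core called lower within 1000 bp of an annotated end. Of these, 19 were higher in RNA (9.95%, background 6.15%) and 3 lower (1.57%, background 4.74%) at an adjusted p under 0.05 in the authors' deposited table. The background shares are over all tested genes. Of the 7568 genes in the authors' deposited table with any core at an end, 5.54% were higher and 5.03% lower. The median log2 fold change there was 0.14 for the 191 genes, beside -0.02 for the 7568. For 129 genes with a core called higher, the authors' deposited table had 8 higher (6.20%) and 5 lower (3.88%), with a median log2 fold change of 0.03. These counts describe the tables, and the difference between the sets of genes was not tested.

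Most genes with long runs had no called RNA, and the same holds for most tested genes. Over all tested genes the authors' deposited table had 6.15% called higher and 4.74% lower. Of the 8 genes with a named lower run and an adjusted p in the authors' deposited table, 2 were called, both higher. Of the 6 with a named higher run 1 was called, also higher. So few genes allow no comparison with the shares over all tested genes. By the authors' deposited table, Bnc1 and Adgrl3, which had long lower runs, rose in RNA, with log2 fold changes of 1.06 (standard error 0.31, adjusted p 0.0117) and 1.18 (0.40, 0.0327). Chn1 stood at 1.04 (0.40) in the authors' deposited table and missed the threshold, with an adjusted p of 0.0686. Septin5 and Tmem62 were listed at 0.20 (0.21, adjusted p 0.636) and 0.37 (0.30, adjusted p 0.494) by the authors' deposited table. Setbp1, with a long higher run, also rose, and the authors' deposited table gave it a log2 fold change of 1.11 (0.33, adjusted p 0.0105). For Kcnn1 and Rbpms the authors' deposited table gave -0.51 (0.38, adjusted p 0.441) and -0.39 (0.29, adjusted p 0.445). Hoxa3, Pdf, Prdm11, Nfia, Epb41l1 and Sdc3 were not called either, with adjusted p of 0.106, 0.872, 0.683, 0.296, 0.626 and 0.863 by the authors' deposited table.

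The largest RNA differences beside called cores were mostly rises. Cxcl12, a chemokine gene, had a core with 18 of 81 members called lower and a mean of -10.01 points, and the authors' deposited table gave its RNA a log2 fold change of 6.68 (0.33, adjusted p 1.33e-89). Rgcc, with its core at -26.3 points, had 1.84 (0.39, adjusted p 0.000131) by the authors' deposited table. Core means were -7.00 points at Tpd52, -3.96 at Kalrn, -4.66 at Rab36 and -8.62 at Fos, and the authors' deposited table listed these genes at 1.85, 1.76, 1.72 and 1.52 on the log2 scale, all called higher. Cores called higher went with RNA of both directions: the authors' deposited table had 2.22 for Nrep (core at 8.34 points) and 1.80 for Paqr8 (2.29 points), but -1.36 for Map2 (8.88 points), each called. Among the listed pathway genes, the authors' deposited table had rises for Fzd1, by 1.29 (0.30, adjusted p 0.000671), and for Tet1, by 0.74 (0.23, adjusted p 0.0200).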

How the data were processed

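Methylation was analysed from 1 table with a line per cytosine, in which the authors deposited p-values, q-values and the methylation difference in percentage points, per the file headers. RNA was analysed from 1 table in which the authors deposited for each gene a mean level (a signal read here as the mean normalized count), a log2 fold change with its standard error, a test statistic (a score), a p-value and an adjusted p-value, per the file headers. Trim Galore, Bismark, Bowtie2, methylKit, TopHat2, HTSeq, DESeq2 and build mm10 are named in the submitters' processing notes, without versions or settings. No source used here says how clones and coverage were handled, so depth per sample and counting intervals cannot be stated.

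Of 2361933 lines, 253 exact duplicates were dropped. Counts, shares, percentiles, runs and correlations were computed in Python 3.11.15 with pandas 2.3.3 and numpy 2.4.6, after the scripts were tested on simulated data; no test was added to the authors' q-values and adjusted p-values. Of 24062 gene symbols, 22550 matched a current RefSeq symbol (GRCm38.p6) and 1352 a single synonym. Of 270391 listed cytosines in promoter windows, 270033 (99.9%) fell on a CpG cytosine of the stated strand. Named were the 10 cores with the longest run in each direction (ties broken by the larger mean), up to 4 genes per list with the largest mean over a called core, and up to 10 genes with a called core and called RNA by size of the log2 fold change, of which 1 is not reported here. Cores with the largest means were named after their values were seen. Members and gene lists were chosen with earlier results of these data known. Alternatives changed the call threshold, the density limit, the radius, the joining distance, the rules for runs and called cores, and the distance to a gene end.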

Additional observations from a re-analysis of the deposited data

How the results depend on the processing

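Of the recomputed values, 50 stayed close to the reported one (counts within 1.5 times, shares within a 95% binomial interval, means to the third decimal), 44 moved and none changed sign. With q under 0.01, dense cores had 6155 lower and 4604 higher calls, 95.03% of them with the same sign on the other strand, 63 lower and 25 higher runs of at least 3 CpGs, and 268 and 162 called cores. Requiring 10 points gave 59.2% of calls lower, 91.4% same sign, 39.8% called on both strands and 41 higher runs. Requiring 25 points gave 2881 lower and 1696 higher calls (62.9% lower), 92.9% same sign, 33.6% called on both strands, 25 lower and 10 higher runs, and 130 and 71 called cores.

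A limit of 16 listed cytosines gave 18180 lower and 13163 higher calls, a mean of -0.276 points and 784 and 426 called cores. A limit of 31 gave 4958 and 3733 calls, a mean of -0.212, 55 lower and 32 higher runs, and 198 and 112 called cores. With 41 or more within 200 bp the mean was -0.202, with 80 lower runs and 213 and 92 called cores. Allowing 1 uncalled cytosine inside a run raised the runs to 402 lower and 226 higher. Asking for 5 calls and 20% of members left 148 and 78 called cores. The mean difference was -0.233 with 1 value per CpG, -0.236 with chromosome X added, and, in alternatives chosen after seeing the data, -0.234 without the ribosomal RNA stretch and -0.225 without the Septin5 core.

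No paired analysis was possible because the tables hold no value per clone, and for the same reason leaving out a clone was not run. Depth per cytosine is unknown, so what it limits cannot be stated.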

Other observations

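Chromosome X, outside the autosomal rule, had 11295 cytosines in stretches of the same density, and 310 were called (2.74%), of which 209 were lower. Their called differences had a median size of 26.4 points, and 56.1% reached 25 points. At exactly 0 stood 28.8% of them.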
